A study of Homo sapiens with 4 samples.

Results

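The 10 genes described here encode the immediate early AP-1 and EGR transcription factors: FOS, FOSB, FOSL1 and FOSL2, then JUN, JUNB and JUND, then EGR1, EGR2 and EGR3. They were chosen by gene symbol, and all 10 were found among the 39261 genes of the deposited tables. RNA-seq was made from 4 cultures (1 library each, passages 10 to 15) of established human breast cancer cells. MDA-MB-231, a mesenchymal triple-negative line grown in L15 medium with 10% fetal bovine serum, carried lentiviral TMEM126A knockdown or a control vector (sh-NC). MCF10-Ca1a (Ca1a), a tumour-forming line of the MCF10 breast epithelial series, carried lentiviral TMEM126A overexpression or a control vector (pCDH). Ca1a cells were kept in DMEM/F12 with 5% horse serum, insulin, hydrocortisone, cholera toxin and 20 ng/ml EGF, a growth factor that itself induces immediate early genes. The sources used here do not give the promoters of the constructs, or whether a culture was a clone or a pool. TMEM126A encodes a protein of the inner mitochondrial membrane with a role in building respiratory complex I.

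AP-1 is a dimer of leucine zipper proteins. A JUN protein pairs with another JUN protein or with a FOS protein, and FOS proteins need a partner to bind DNA. EGR proteins are zinc finger factors that bind GC-rich sites. In most cells serum, growth factors and stress switch on FOS, FOSB, JUNB, EGR1, EGR2 and EGR3 within minutes, through the ERK kinases and the serum response factor, and the transcripts are short-lived. FOSL1, FOSL2 and JUND last longer, and FOSL1 (FRA-1) is known for high expression in mesenchymal breast cancer lines.

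The libraries held 20673373 to 21405193 reads. There were no replicates, so no difference has a replicate check and no test was made. Intervals below are 95% counting intervals: they cover counting error only, not differences between cultures that have nothing to do with TMEM126A. TMEM126A itself had 22.9 normalized counts with knockdown, against 559 in control cells, and 9381 counts with overexpression, against 265 in control cells. The lines matched their markers: VIM, a mesenchymal filament gene, stood at 708 to 721 FPKM in MDA-MB-231, and EPCAM, an epithelial adhesion gene, at 131 to 133 FPKM in Ca1a. VIM was also expressed in Ca1a, at 74.8 to 90.5 FPKM. FPKM (fragments per kilobase of transcript, scaled to the library) is a level that allows for transcript length. CDH1, the E-cadherin gene, was near 0 in MDA-MB-231 at 0.203 to 0.332 FPKM. The highest value of 7 fibroblast, immune and endothelial markers in any library was 1.79 FPKM. In bulk RNA, fewer cells with a transcript and less of it per cell cannot be told apart.

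Promoter sequence is shown for 3 genes that stood lower in the overexpression library (JUNB, EGR1 and JUND) and for FOS, which did not differ there beyond counting error, so that known response elements can be seen beside the values. Each line holds the 250 bases before the RefSeq start of the gene (GRCh38.p14), 5′ to 3′ along the gene. Capitals mark matches, on either strand, to CGTCA (the core of the cyclic AMP response element), to the CArG box (the site of the serum response factor) and to GCGNGGGCG (the EGR site). TGANTCA, the AP-1 site, was also searched and had no match in the 4 windows.
JUNB (chr19:12791236-12791485, plus strand): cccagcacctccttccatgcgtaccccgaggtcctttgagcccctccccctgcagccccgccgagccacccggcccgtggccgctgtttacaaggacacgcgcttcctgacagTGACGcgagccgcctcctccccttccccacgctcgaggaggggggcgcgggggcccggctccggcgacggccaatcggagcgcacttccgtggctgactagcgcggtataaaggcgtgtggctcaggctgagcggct
EGR1 (chr5:138465229-138465478, plus strand): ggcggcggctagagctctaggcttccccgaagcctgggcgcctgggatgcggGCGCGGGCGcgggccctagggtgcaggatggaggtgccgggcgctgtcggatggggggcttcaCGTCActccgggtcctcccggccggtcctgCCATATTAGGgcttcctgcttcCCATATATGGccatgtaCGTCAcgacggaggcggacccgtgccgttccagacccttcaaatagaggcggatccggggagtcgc
JUND (chr19:18281623-18281872, minus strand): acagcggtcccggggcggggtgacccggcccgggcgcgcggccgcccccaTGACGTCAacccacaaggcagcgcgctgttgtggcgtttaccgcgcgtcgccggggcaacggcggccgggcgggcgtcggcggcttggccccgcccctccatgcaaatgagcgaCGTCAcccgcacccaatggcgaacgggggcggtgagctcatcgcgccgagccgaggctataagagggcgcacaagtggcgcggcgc
FOS (chr14:75278578-75278827, plus strand): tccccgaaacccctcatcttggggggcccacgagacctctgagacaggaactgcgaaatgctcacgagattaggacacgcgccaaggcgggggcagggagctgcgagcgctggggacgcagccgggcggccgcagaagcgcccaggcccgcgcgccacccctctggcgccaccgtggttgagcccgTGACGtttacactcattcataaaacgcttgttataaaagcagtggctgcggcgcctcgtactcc

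The EGR1 window holds 2 CArG boxes, beginning 105 and 83 bases before the start, and its GCGNGGGCG match begins at 198 bases. Of 35116 promoter windows of this length, 1.16% hold a CArG box, 8.41% hold GCGNGGGCG and 21.2% hold CGTCA. Windows of 8 of the 10 genes were searched; FOSL1 and EGR3 are only named here. CGTCA occurred in at least 1 window of all 8 genes, and TGANTCA, which 6.57% of windows hold, in none of them. A CArG box occurred in a window of EGR1 and of EGR2. Sites further from the start than 250 bases were not searched, so a gene without a match, such as FOS, may hold one there. The JUND window also holds the full element TGACGTCA, made of 2 overlapping CGTCA matches on opposite strands, which occurs in 1.65% of windows. TATAAA, not set in capitals, lies 31 bases before the start of JUNB and 33 bases before that of FOS, and 10.7% of windows hold it. RefSeq and GENCODE starts can differ. By the GENCODE positions the FOSL2, JUN and EGR2 windows lie inside the gene, and the FOS window reaches into it. A match describes the letters and shows no binding.

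The lines differed in which FOS genes they expressed. FOSL1 was the highest of the 10 genes in both control libraries, at 294.5 FPKM in MDA-MB-231 (95% counting interval 290 to 300) and 150 FPKM in Ca1a (146 to 153). It ranked 119 among all 39261 genes in the MDA-MB-231 control. FOS, the prototype of the family, stood at 0.894 FPKM in the MDA-MB-231 control (0.647 to 1.204) and 40.6 FPKM in the Ca1a control (38.9 to 42.4), 45.4-fold lower in MDA-MB-231. These levels rest on 43 reads in the MDA-MB-231 control and 2006 reads in the Ca1a control, where FOS ranked 1270. FOSL2, which encodes FRA-2, went the other way, with 31.3 FPKM in the MDA-MB-231 control and 9.98 FPKM in the Ca1a control, 3.13-fold higher in MDA-MB-231. FOSB was low in both, at 0.512 and 0.504 FPKM.

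All JUN genes were expressed in both lines, and of the 3 JUNB had the largest ratio between the controls. JUNB, which often restrains the activity of JUN, stood at 35.0 FPKM in the MDA-MB-231 control and 145 FPKM in the Ca1a control, 4.14-fold lower in MDA-MB-231. JUN, the founding member, had 56.4 FPKM in the MDA-MB-231 control and 35.1 FPKM in the Ca1a control. JUND, whose transcript is present in most resting cells, had 66.4 FPKM in the MDA-MB-231 control and 48.3 FPKM in the Ca1a control. Among the EGR genes only EGR1 was well expressed, at 5.84 FPKM in the MDA-MB-231 control and 39.3 FPKM in the Ca1a control, 6.74-fold lower in MDA-MB-231. EGR2 had 0.263 and 0.298 FPKM in these controls and EGR3 0.0699 and 0.165 FPKM. The line and its medium cannot be told apart in these differences, and only the Ca1a medium held added EGF.

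**Figure D1:**
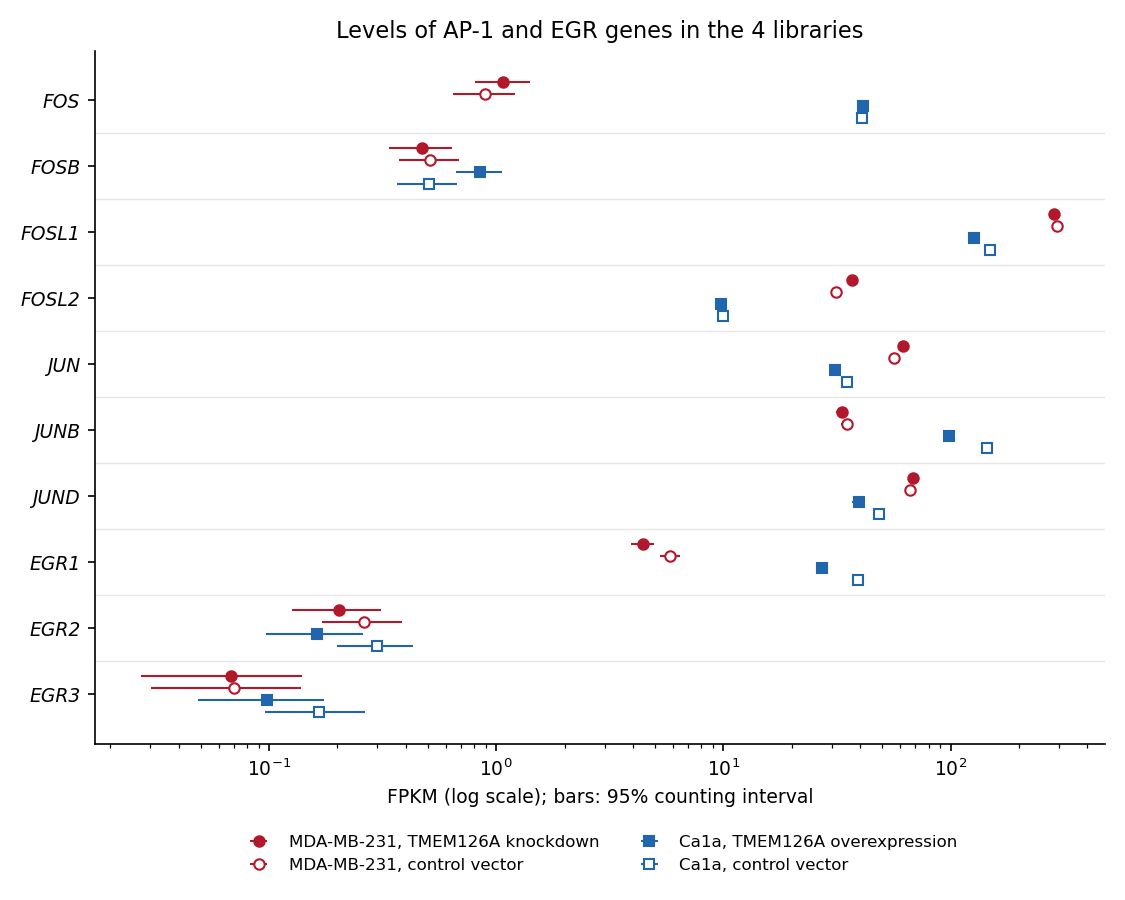
FPKM (log axis) of the 10 genes in the 4 libraries, circles for MDA-MB-231 and squares for Ca1a, filled for knockdown or overexpression and open for control; bars are 95% counting intervals. FOS, JUNB and EGR1 sit further right in Ca1a, FOSL1 and FOSL2 further right in MDA-MB-231, and for FOS, JUNB and EGR1 the filled and open symbols of a line lie closer together than the lines do.

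The order of levels in the MDA-MB-231 control was FOSL1, JUND, JUN, JUNB, FOSL2, EGR1, FOS, FOSB, EGR2 and EGR3, where the intervals of FOS and FOSB and those of FOSB and EGR2 overlapped. In the Ca1a control it was FOSL1, JUNB, JUND, FOS, EGR1, JUN, FOSL2, FOSB, EGR2 and EGR3. There the intervals overlapped between FOSL1 and JUNB, between FOS and EGR1, between FOSB and EGR2 and between EGR2 and EGR3. Neighbours in the middle depended on the transcript length used. As reads per kilobase of all annotated exons, scaled to the library, JUN stood above JUND in the MDA-MB-231 control, at 48.8 against 38.8, and EGR1 above JUND in the Ca1a control, at 40.9 against 29.7. On that scale FOSL2 also stood above JUNB and JUND in the MDA-MB-231 control, at 44.3 against 29.5 and 38.8. In the Ca1a control JUN, at 31, stood above JUND, and JUN and EGR1 stood above FOS, at 29.1.

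As shares of the summed FPKM of each family, FOSL1 made up 88.1% of the FOS family with knockdown and 90.0% in control cells. FOS itself made up 0.330% with knockdown and 0.273% in control cells. In Ca1a, FOSL1 made up 71.0% with overexpression and 74.5% in control cells, and FOS 23.0% and 20.2% in the same libraries. The JUN family was divided among its 3 genes in MDA-MB-231, where JUNB took 20.4% with knockdown and 22.2% in control cells. In Ca1a JUNB was the main JUN transcript, at 58.3% with overexpression and 63.4% in control cells. These are shares of RNA, not of dimers or proteins.

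**Figure D2:**
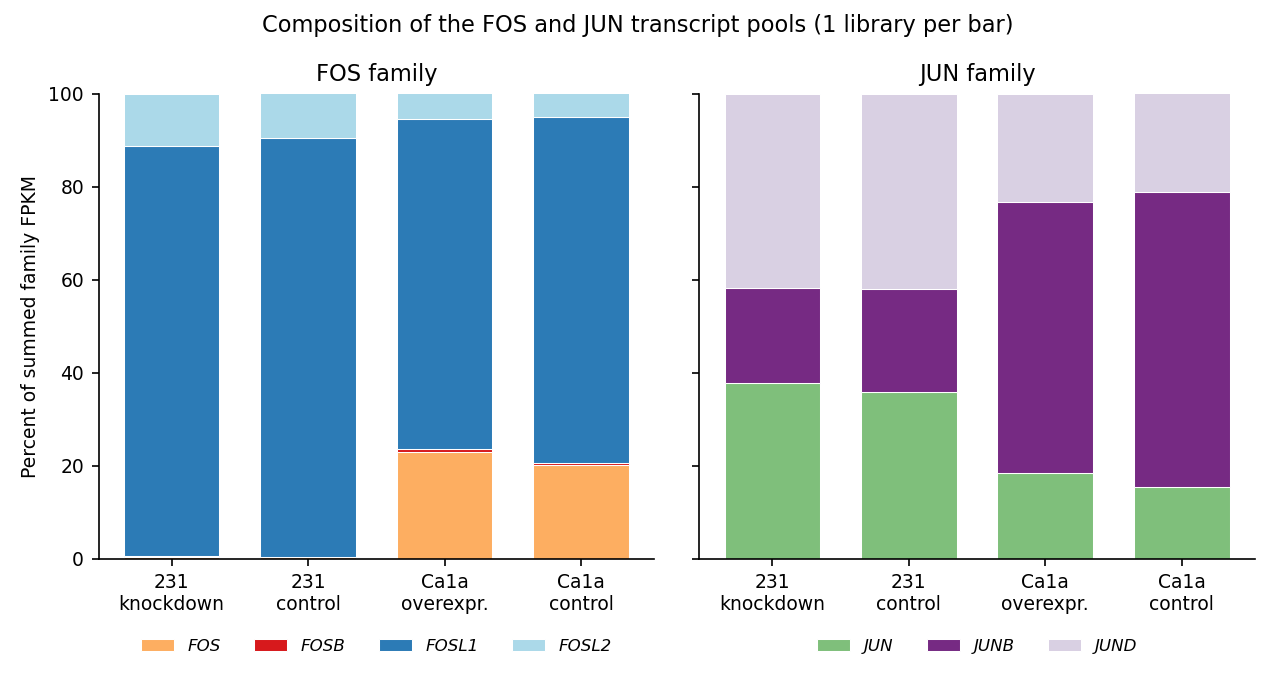
Percent of the summed FPKM of the FOS family (left) and of the JUN family (right) held by each gene, with 1 bar per library and each knockdown or overexpression library left of its control. FOSL1 takes 71.0% to 90.0% of every FOS bar, and JUNB takes 58.3% to 63.4% of the Ca1a JUN bars against 20.4% to 22.2% in MDA-MB-231.

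The first comparison asks what lower TMEM126A does to these transcripts in MDA-MB-231. EGR1 was lower and FOSL2 higher in the knockdown library, and the other genes lay within 1.2-fold or within counting error. A gene was counted where its mean was at least 20 normalized counts (reads divided by a size factor), its ratio was at least 1.2-fold and its interval left out 1. By this rule 1 of 9 measured members was higher, against 5.33% of 13292 genes tested, and 1 was lower, against 3.39%. By the interval alone 2 members were higher (FOSL2 and JUN), against 16.8% of genes tested, and 1 was lower, against 11.3%. Intervals narrow with more reads, so shares by the interval alone, here and below, depend on read counts and were not matched for them. EGR3 was under the filter. The median log2 ratio of the 9 was -0.01, against 0.01 for all genes tested.

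EGR1, on chromosome 5 from 138465490 to 138469315 (plus strand, GENCODE release 29 on GRCh38), had 307 normalized counts with knockdown (274 to 343) and 396 in control cells (358 to 438). It was 1.29-fold lower in the knockdown library (1.11 to 1.503). FOSL2, on chromosome 2 from 28392448 to 28417312 (plus strand), had 7985 normalized counts with knockdown (7811 to 8161) and 6598 in control cells (6439 to 6759). That is 1.21-fold higher in the knockdown library (1.17 to 1.25), a ratio at the limit of the rule, and FOSL2 no longer passed with scaling by total reads, by TMM or by the median ratio, or with FPKM. The annotation shows AC104695.3 overlapping FOSL2 on the same strand and FLJ31356 on the opposite strand, and reads of such overlaps cannot be told apart here. FLJ31356 itself had 2.98 normalized counts with knockdown and 2.01 in control cells. JUN had 4008 normalized counts with knockdown and 3590 in control cells, 1.12-fold higher (1.07 to 1.17), which is beyond counting error but under 1.2-fold.

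The abundant FOSL1 had 13241 normalized counts with knockdown and 13324 in control cells, a ratio of 0.994 (0.970 to 1.02). Of the 10 genes it had the narrowest interval in this comparison. JUNB had 1088 normalized counts with knockdown and 1117 in control cells, a ratio of 0.974 (0.896 to 1.06). JUND had 1605 with knockdown and 1503 in control cells, a ratio of 1.07 (0.995 to 1.15). The low genes gave wide intervals. FOS had 52.7 normalized counts with knockdown and 43.3 in control cells, a ratio of 1.22 (0.799 to 1.86), and FOSB had 40.7 and 45.3, a ratio of 0.90 (0.575 to 1.41). For EGR2 the values were 20.9 normalized counts with knockdown and 26.2 in control cells, a ratio of 0.798 (0.427 to 1.47). EGR3, whose product regulates muscle spindle and immune cell genes, had 6.96 and 8.05. At the counts of these 4 genes a difference of the size seen for EGR1 was not detectable.

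The second comparison asks what higher TMEM126A does to them in Ca1a. JUNB, EGR1 and JUND were lower in the overexpression library and FOSB was higher, while FOS and FOSL2 did not differ beyond counting error. By the same rule 3 of 9 measured members were lower, against 5.94% of 12111 genes tested, and 1 was higher, against 5.76%. Among genes with a mean of at least 1000, a limit chosen after seeing the data, 3.75% were lower by the rule and 2.84% higher. JUNB, EGR1 and JUND are among the lower ones, JUND with a mean of 1041, close to that limit. FOS, FOSL1, FOSL2 and JUN also reached that mean and did not pass the rule. By the interval alone 5 members were lower, against 16.2% of genes tested, and 1 higher, against 18.1%. These shares by the interval alone were not matched for read counts. The median log2 ratio of the 9 was -0.23, against 0.01 for all genes tested.

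JUNB, on chromosome 19 from 12791496 to 12793315 (plus strand), had 3193 counts with overexpression (3083 to 3306) and 4903 in control cells (4767 to 5042), a log2 ratio of -0.62 (-0.68 to -0.55). It overlaps HOOK2, a gene on the opposite strand, and the sources used here do not give the strand setting of the counting, so such reads cannot be told apart. HOOK2 had 1088 counts with overexpression and 1086 in control cells, a ratio of 1.002 (0.92 to 1.09). In the authors' deposited table JUNB is the one member with an adjusted p-value under 0.05, at 0.0176 by DESeq from 1 library per group, among 24 such genes in that table. EGR1 had 1910 counts with overexpression (1825 to 1998) and 2734 in control cells (2632 to 2838), a log2 ratio of -0.52 (-0.60 to -0.43). Its adjusted p-value in the authors' deposited results is not under 0.05. In their knockdown results no member has an adjusted p-value under 0.05.

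JUND, on chromosome 19 from 18279760 to 18281622 (minus strand), had 904 counts with overexpression (846 to 965) and 1178 in control cells (1112 to 1247), 1.30-fold lower (1.19 to 1.42). FOSL1 had 5752 counts with overexpression and 6747 in control cells, 1.17-fold lower (1.13 to 1.22). JUN, on chromosome 1 from 58780788 to 58784327 (minus strand), had 2040 counts with overexpression and 2338 in control cells, 1.15-fold lower (1.08 to 1.22). Both are beyond counting error and under 1.2-fold. All 3 JUN genes thus stood lower in the overexpression library, and their summed FPKM was 169 there against 228 in control cells, a ratio of 0.740. In MDA-MB-231 the same sum was 163 FPKM with knockdown and 158 FPKM in control cells.

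FOS, on chromosome 14 from 75278774 to 75282230 (plus strand), had 2037 counts with overexpression and 2006 in control cells, a ratio of 1.02 (0.954 to 1.08). Its interval leaves out differences of the size seen for JUNB or EGR1. FOSL2 had 2129 counts with overexpression and 2140 in control cells, a ratio of 0.995 (0.936 to 1.06). FOSB, on chromosome 19 from 45467995 to 45475179 (plus strand), had 78 counts with overexpression (61.7 to 97.3) and 45 in control cells (32.8 to 60.2), 1.73-fold higher (1.19 to 2.56). It overlaps ERCC1 on the opposite strand, a DNA repair gene with 1658 counts with overexpression and 2057 in control cells, a ratio of 0.806 (0.755 to 0.860). EGR2, a factor known for its part in myelination, had 18 counts with overexpression and 29 in control cells, a ratio of 0.621 (0.325 to 1.16). EGR3 had 11 and 17 counts, a ratio of 0.647 (0.274 to 1.46), and was under the filter.

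**Figure D3:**
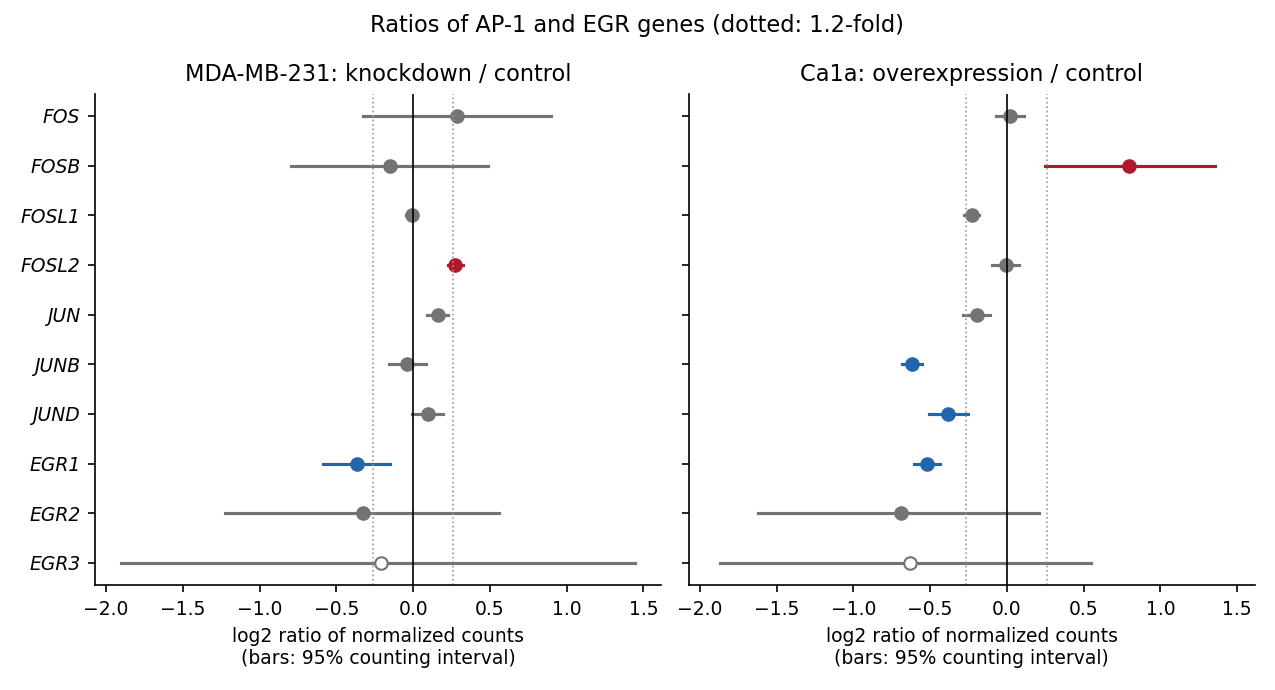
Log2 ratio of normalized counts of each gene, knockdown over control in MDA-MB-231 (left) and overexpression over control in Ca1a (right); bars are 95% counting intervals, dotted lines mark 1.2-fold, blue and red mark genes counted as lower and higher, and open circles are genes under the filter. EGR1 lies left of 0 in both panels, at -0.37 and -0.52, and JUNB at -0.04 and -0.62.

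Side by side, EGR1 was lower in both comparisons, although TMEM126A was lowered in one and raised in the other: its log2 ratio was -0.37 (-0.59 to -0.15) with knockdown in MDA-MB-231 and -0.52 (-0.60 to -0.43) with overexpression in Ca1a. JUN had a log2 ratio of 0.16 (0.09 to 0.22) with knockdown and -0.20 (-0.28 to -0.11) with overexpression. For JUNB the log2 ratios were -0.04 (-0.16 to 0.08) and -0.62 (-0.68 to -0.55). The comparisons are in different lines and media with 1 library per group, and a difference between them was not tested.

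Genes around AP-1 and EGR were described by 8 further lists, with the shares of all tested genes, already given, repeated beside their counts. Among 24 other immediate early genes, 21 were measured in Ca1a, of which 4 were lower by the rule and 0 higher, against 5.94% and 5.76% of all genes tested. Their median log2 ratio was -0.15, against 0.01 for all genes. IER2, a serum-induced gene, had 1905 counts with overexpression and 2525 in control cells, 1.33-fold lower (1.25 to 1.41). IER5 was 1.25-fold lower (1.18 to 1.34), and KLF2, a zinc finger factor gene, had 21 counts with overexpression and 38 in control cells. PPP1R15A, which encodes a phosphatase subunit of the stress response and was chosen after its values were seen, was 1.23-fold lower (1.17 to 1.28). By the interval alone, 12 of the 21 were lower and 2 higher, against 16.2% and 18.1% of all genes tested, shares not matched for read counts. In MDA-MB-231, 22 of the list were measured, with 2 higher, 0 lower and a median of -0.04, against 5.33% higher, 3.39% lower and a median of 0.01 for all genes tested. By the interval alone 5 of the 22 were higher and 6 lower, against 16.8% and 11.3%. There IER5L had 439 normalized counts with knockdown and 276 in control cells, 1.59-fold higher (1.37 to 1.86), and ZFP36L2, whose product promotes mRNA decay, was 1.22-fold higher (1.12 to 1.32).

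ERK feedback genes encode phosphatases and Sprouty proteins that damp the ERK kinases, together with ETS factors that ERK induces. In MDA-MB-231, 3 of 13 measured were higher in the knockdown library and 0 lower, against 5.33% and 3.39% of all genes tested. DUSP4, a nuclear phosphatase gene, had 10221 normalized counts with knockdown and 6958 in control cells, 1.47-fold higher (1.42 to 1.51). SPRY1 was 1.70-fold higher (1.46 to 1.97) and SPRY2 1.22-fold higher (1.14 to 1.30). In Ca1a, 3 of 13 were lower and 1 higher, against 5.94% and 5.76%. DUSP1, itself an immediate early gene, had 2542 counts with overexpression and 3708 in control cells, 1.46-fold lower (1.39 to 1.53). DUSP7 was 1.23-fold lower (1.17 to 1.29) and SPRY4 1.23-fold lower (1.16 to 1.31). DUSP4 was higher here too, 1.203-fold (1.18 to 1.23), a ratio at the limit of the rule. The medians of this list were 0.04 with knockdown and -0.10 with overexpression.

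Upstream of these factors, 0 of 13 measured MAPK pathway kinases passed the rule in either comparison. Of all genes tested, 5.33% were higher and 3.39% lower with knockdown, and 5.76% and 5.94% with overexpression. By the interval alone 4 of the 13 kinases were higher and 1 lower with knockdown, against 16.8% and 11.3% of all genes tested. With overexpression 1 was higher and 2 lower, against 18.1% and 16.2%. Their median log2 ratios were 0.04 with knockdown and -0.05 with overexpression. Of 6 measured genes of the serum response factor and its cofactors, 1 was lower with knockdown (3.39% of all genes tested) and 0 higher (5.33%). It was ELK4, an ETS cofactor of that factor, 1.22-fold lower (1.14 to 1.30). In Ca1a 0 of 6 passed, against 5.94% lower and 5.76% higher. The medians were -0.09 with knockdown and -0.07 with overexpression. Among AP-1 dimer partners and related leucine zipper genes, 1 of 13 was higher and 2 lower in the knockdown library, against 5.33% and 3.39% of all genes tested. The medians were -0.05 with knockdown and -0.01 with overexpression. JDP2, which encodes a repressive JUN partner, had 220 normalized counts with knockdown and 333 in control cells, 1.52-fold lower (1.28 to 1.81). ATF3, a stress-induced partner, was 1.27-fold lower (1.07 to 1.51), and BATF2 1.42-fold higher (1.02 to 2.01). In Ca1a JDP2 was the 1 of 11 measured that was higher, against 5.76% of all genes tested, and 0 were lower, against 5.94%. JDP2 had 236 counts with overexpression and 181 in control cells, 1.30-fold higher (1.07 to 1.59). NAB2, an EGR-induced corepressor of EGR1, had 672 counts with overexpression and 941 in control cells, 1.40-fold lower (1.27 to 1.55). In MDA-MB-231 NAB2 had 525 normalized counts with knockdown and 578 in control cells, a ratio within counting error. NAB2 was the 1 gene to pass among 2 measured genes of the EGR relative and NAB list in Ca1a. Of all genes tested there, 5.94% were lower and 5.76% higher. In MDA-MB-231 0 of 3 passed, against 5.33% higher and 3.39% lower.

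Known target genes of AP-1 and EGR were found on both sides of the controls. Of 12 measured AP-1 targets in Ca1a, 3 were lower and 0 higher, against 5.94% and 5.76% of all genes tested, and the median log2 ratio was -0.01. HBEGF, an EGF receptor ligand gene, was 1.29-fold lower (1.24 to 1.35) and TIMP1, a metalloprotease inhibitor gene, 1.32-fold lower (1.22 to 1.43). IL11, a cytokine gene, had the lowest ratio of the 3, with 76 counts with overexpression and 156 in control cells. In MDA-MB-231, 2 of 15 measured AP-1 targets were higher and 1 lower, against 5.33% and 3.39%, and the median was 0.07. IL11 was 1.40-fold higher (1.28 to 1.52) and IL6 1.203-fold higher (1.15 to 1.26), a ratio at the limit of the rule. In contrast, the collagenase gene MMP1, a classical AP-1 target, had 730 normalized counts with knockdown and 1051 in control cells.

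Among 7 measured EGR targets in Ca1a, 3 were lower and 1 higher, against 5.94% and 5.76% of all genes tested, and the median log2 ratio was 0.05. TGFB1 had 58 counts with overexpression and 123 in control cells, and PDGFA, a growth factor gene, was 1.21-fold lower (1.07 to 1.36). NAB2, given above, was the other. THBS1, the thrombospondin 1 gene, had 11531 counts with overexpression and 7196 in control cells, 1.60-fold higher (1.56 to 1.65). Of 6 measured in MDA-MB-231, 1 was higher and 0 lower, against 5.33% and 3.39% of all genes tested. It was PDGFB, whose product can pair with that of PDGFA, 1.63-fold higher (1.101 to 2.44). PDGFB had 70.6 normalized counts with knockdown and 43.3 in control cells. The median of the 6 was 0.03.

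**Figure D4:**
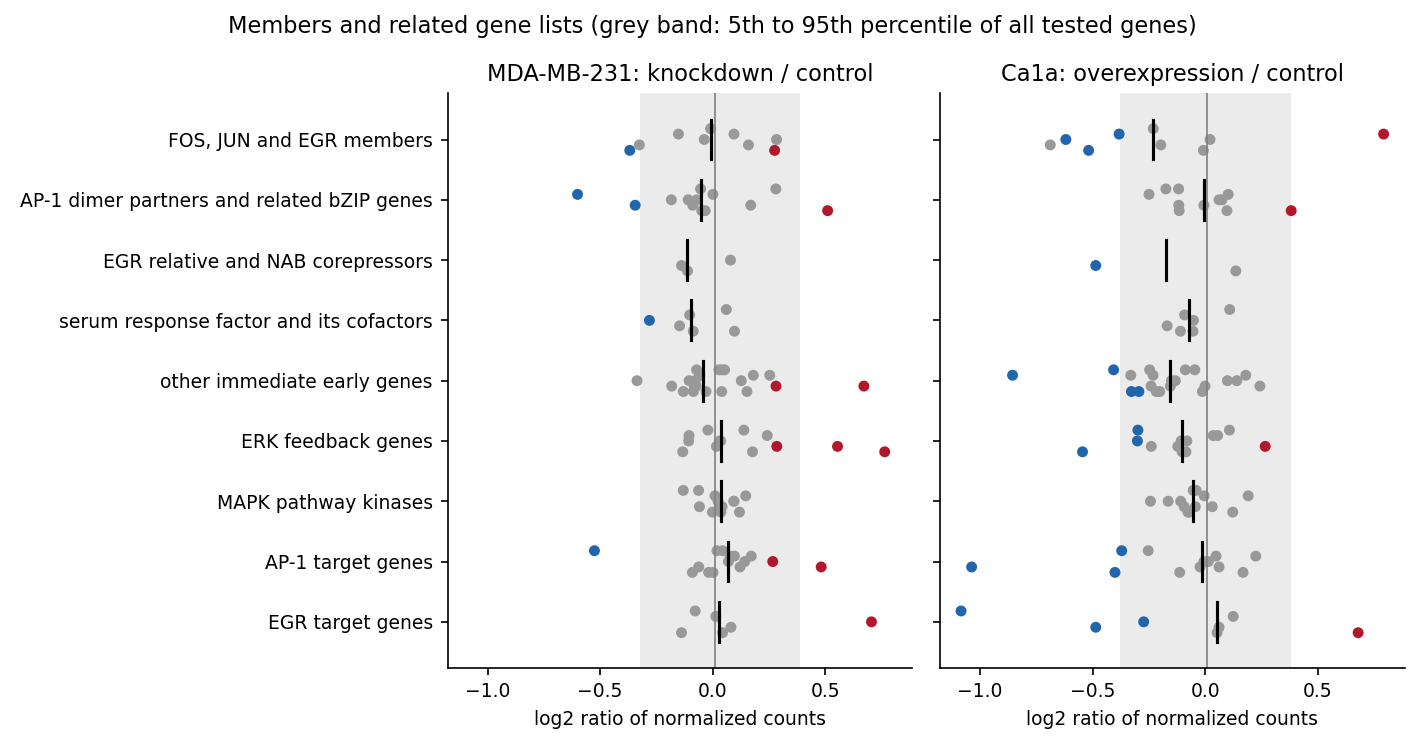
Log2 ratio of normalized counts of each measured gene in the 10-gene set and in 8 related lists, knockdown over control in MDA-MB-231 (left) and overexpression over control in Ca1a (right). Black bars are list medians, the grey band spans the 5th to 95th percentile of all tested genes (-0.32 to 0.38 and -0.37 to 0.38), and blue and red mark genes counted as lower and higher; the medians of the members and of the other immediate early genes in Ca1a are -0.23 and -0.15.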

How the data were processed

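RNA-seq of 4 libraries was analysed, with 1 library per group. DESeq, HTSeq, Cufflinks and HISAT2 and the builds hg38 and GRCh38.p5 are named in the submitters' processing notes, without versions or roles. For Ca1a the authors deposited whole-number counts per gene, per the file headers as DESeq base means. Both Ca1a libraries thus had a size factor of 1, and their normalized counts are these counts, without scaling. The MDA-MB-231 table was deposited as a signal (counts over a size factor), and 100% of its values were whole multiples of 1 read within 1e-06, so reads were recovered. The deposited tables also hold the authors' ratio (fold change), log2 fold change, p-value and adjusted p-value; the deposited fold changes matched the recomputed ratios. The authors deposited FPKM as well; the sources used here do not say what they were scaled to.

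Ratios are of normalized counts, without a pseudocount, with exact conditional binomial (Clopper-Pearson) intervals; levels carry exact Poisson intervals. Reads without molecular identifiers are not independent molecules. Positions came from GENCODE release 29, matched by Entrez ID, and promoters from RefSeq, by symbol. Named genes are the 10 members, TMEM126A, cell type markers and, per list and comparison, up to 4 with the largest ratios; PPP1R15A and the genes overlapping JUNB, FOSB and FOSL2 were added outside this rule. The members, lists and rule were chosen with earlier results of these data known. A gene of the target lists is not reported here and was left out of their counts and medians after these had been computed. The procedure was tested on simulated counts that varied by counting error only, as the intervals assume. That test does not cover differences between cultures. Alternatives were FPKM, other scalings, pseudocounts, filters, folds and intervals, with 1 filter added after seeing the data. TMM factors came from edgeR 4.0.16 (R 4.3.3); the rest was computed in python 3.11.15 with scipy 1.17.1, pandas 2.3.3, numpy 2.4.6 and matplotlib 3.10.9.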

Additional observations from a re-analysis of the deposited data

How the results depend on the processing

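The log2 ratios of the 10 genes kept their sign and stayed inside their counting intervals in all 120 recomputations. These were 20 ratios under FPKM, 3 scalings and pseudocounts of 1 and 5. They are not separate checks: a pseudocount cannot change a sign, and a scaling moves all ratios of a comparison by the same amount. The largest shift of the median of all genes was -0.03, with scaling by total reads in MDA-MB-231. Genes of the further lists were not recomputed one by one, and those near 1.2-fold could change. The count of members passing the rule changed as follows, with the share of all genes tested that passed the same altered rule in parentheses. With FPKM the interval was not applied, and the interval of EGR2 holds 1 in both comparisons. With knockdown, 0 rather than 1 was higher with FPKM (9.24%). The same held with scaling by total reads (4.15%), by TMM (4.8%) or by the median ratio (4.81%), at 1.5-fold (1.44%) and at 2-fold (0.271%). At 1.1-fold 2 were higher (11.4%, with JUN), as were 2 without the interval (8.98%, with FOS). With knockdown, 2 rather than 1 were lower with FPKM (8.15%) and without the interval (6.88%), in both cases EGR1 and EGR2. The count was 0 at 1.5-fold (0.775%), at 2-fold (0.188%) and at a mean of at least 1000 (1.43%). With overexpression, 0 rather than 1 was higher at 2-fold (0.314%). The same held at a mean of at least 100 (5.54%) or 1000 (2.84%), since FOSB has few counts. With overexpression, 5 rather than 3 were lower at 1.1-fold (12%, with FOSL1 and JUN). Together with EGR2, 4 were lower with FPKM (10.5%) and without the interval (9.4%). At 1.5-fold 1 was lower (1.37%, JUNB) and at 2-fold 0 (0.314%). No paired analysis was possible because each group holds 1 library. For the same reason no library could be left out, and the depth limits EGR2, EGR3, FOSB and, in MDA-MB-231, FOS to wide intervals.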
